A study of Mus musculus with 100 samples.

Results

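Genes of B cells and antibodies were followed in RNA sequencing of whole mouse knee joints. The 9 members were Rag1, Vpreb1, Igll1, Vpreb3, Pax5, Cd79a, Cd79b, Ms4a1 and Ighg1, chosen by name with earlier results of these data known. All 9 were among the 17310 genes tested. Mice of 3 inbred strains (C57BL/6, MRL/MpJ and STR/ort), aged 10 weeks, had the right knee injured with a single compressive load, which tears the anterior cruciate ligament. Injured joints and the uninjured joints of the opposite side were taken 1-day, 1-week or 2-weeks later, and joints of mice without injury at 0-day. In the labels STR/ort is highly susceptible and MRL/MpJ not susceptible to post-traumatic osteoarthritis. The labels name no engineered allele and no drug in any group, and how many animals a library holds is not stated before 2-weeks. The 21 groups held 4 or 5 libraries each, 100 in all, with 6182016 to 20986027 counts per library and a median of 10582592. The joints were cut at the edges of femur and tibia with small traces of soft tissue, so bone marrow and muscle were part of the sample. The libraries of 0-day, 1-day and 1-week formed 1 experimental batch of 70 libraries and those of 2-weeks another of 30, so that time and batch cannot be told apart at 2-weeks, and 2-weeks was not tested against other times.

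B cells arise in the bone marrow, where a progenitor cuts and rejoins its antibody genes, first carries a receptor with a stand-in light chain and then a complete one. Rag1 encodes a subunit of the recombinase that makes the cuts. Vpreb1 and Igll1 encode the surrogate light chain of the receptor of precursor B cells, and Vpreb3 a related protein of precursor B cells. Pax5 is the transcription factor that commits cells to the B lineage. Cd79a and Cd79b encode the signalling chains of the B cell receptor, Ms4a1 the surface protein CD20, and Ighg1 the constant region of the IgG1 heavy chain, which antibody-secreting plasma cells make in bulk. Plasma cells lose Pax5 and CD20, so that Ighg1 reports on another stage of the lineage than Pax5 and Ms4a1.

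All 9 genes were present in every library. Read against the GENCODE M21 annotation of GRCm38, Rag1 lay at chr2:101638282-101649501 (minus strand), Vpreb1 at chr16:16868403-16870843 (minus), Igll1 next to it at chr16:16860671-16863985 (minus), Vpreb3 at chr10:75943057-75949657 (plus), Pax5 at chr4:44524757-44710487 (minus), Cd79a at chr7:24897381-24902197 (plus), Cd79b at chr11:106311341-106314762 (minus), Ms4a1 at chr19:11249675-11266241 (minus) and Ighg1 at chr12:113325240-113330523 (minus). Some exons are shared with other genes. Vpreb1 overlapped exons of Top3b on the opposite strand over 9.0% of its exon bases, and Pax5 overlapped 5730488B01Rik on the opposite strand over 7.2%. Of all stretches of 50 bases in the transcripts of Vpreb1, 18.8% also occur in Vpreb2, its near copy, and of those of Cd79a 8.3% occur in Gm32220. The coding sequences of Vpreb1 and Vpreb2 have 426 bases each and are 97.9% identical. Bases 268 to 387 are shown because they hold 6 of the 9 differing bases, printed in capitals.
Vpreb1: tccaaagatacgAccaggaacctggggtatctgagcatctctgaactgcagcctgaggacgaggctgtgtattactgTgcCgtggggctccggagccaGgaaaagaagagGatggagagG
Vpreb2: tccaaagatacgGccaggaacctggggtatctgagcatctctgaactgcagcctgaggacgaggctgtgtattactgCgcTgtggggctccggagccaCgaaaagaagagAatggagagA
Vpreb2 has no row in the count table, and how reads that fit both genes were counted is not given in the sources used here, so that the level of Vpreb1 may hold reads of both. It was also the scarcest member, with as few as 13 counts in a library.

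Since 8 of the members moved together between groups, their promoters are shown in part. RefSeq promoters of GRCm38.p6 (250 bases before to 50 after the start of transcription) were found for 6 members. The E box CAGGTG, searched on both strands, occurred in 4 of these 6 (Cd79a at -154, Rag1 at -135, Vpreb1 at -88 and Igll1 at -8, counted from the start site) and in 20.2% of all 32851 promoters. The E box CAGCTG occurred in 2 (Rag1 at -128 and Igll1 at -158; 16.3% of all promoters), CCCNNGGG, the core letters of the palindrome bound by EBF1, in 1 (Igll1 at -231; 13.7%), the octamer ATGCAAAT in 1 (Vpreb3 at -45; 1.7%), and TATAAA in 0 (13.6%). These are matches of letters, not measured sites. CAGGTG and ATGCAAAT, in either orientation, are in capitals below. Pax5 held none of these motifs.
Rag1 (GRCm38.p6, chr2:101649483-101649782, minus strand): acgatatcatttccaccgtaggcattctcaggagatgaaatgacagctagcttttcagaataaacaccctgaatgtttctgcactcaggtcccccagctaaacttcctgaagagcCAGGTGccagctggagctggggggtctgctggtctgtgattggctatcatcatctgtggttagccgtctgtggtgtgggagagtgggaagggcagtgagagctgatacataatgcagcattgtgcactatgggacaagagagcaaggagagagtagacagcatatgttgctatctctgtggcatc
Cd79a (GRCm38.p6, chr7:24897247-24897546, plus strand): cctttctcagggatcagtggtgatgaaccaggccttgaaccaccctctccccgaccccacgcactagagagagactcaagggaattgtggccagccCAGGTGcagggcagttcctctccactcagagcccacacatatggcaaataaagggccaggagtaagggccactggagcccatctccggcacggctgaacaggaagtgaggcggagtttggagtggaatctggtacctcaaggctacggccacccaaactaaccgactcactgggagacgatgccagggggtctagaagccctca
Vpreb3 (GRCm38.p6, chr10:75948050-75948349, plus strand): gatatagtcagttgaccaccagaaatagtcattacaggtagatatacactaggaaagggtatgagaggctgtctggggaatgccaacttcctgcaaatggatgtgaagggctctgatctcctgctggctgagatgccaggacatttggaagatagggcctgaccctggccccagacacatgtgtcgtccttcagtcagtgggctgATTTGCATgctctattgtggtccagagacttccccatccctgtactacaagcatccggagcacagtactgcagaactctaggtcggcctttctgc

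Levels were set side by side per kilobase of exon, since the genes differ in length. As the median over the 21 groups of the mean CPM (counts scaled to library size) per kilobase, Cd79a stood at 33.6, Cd79b at 22.5, Vpreb3 at 22.4, Rag1 at 5.48, Ighg1 at 5.47, Igll1 at 3.77, Ms4a1 at 3.67, Vpreb1 at 2.87 and Pax5 at 1.03. The ratio of the highest to the lowest group mean, in CPM, was 25.7 for Ighg1, 8.75 for Pax5 and between 2.42 and 5.16 for the other 7. Of the 20 steps between neighbours in the order of group means, 19 or 20 overlapped in their libraries for every member, so that the order of single groups was not resolved and the comparisons below rest on the tests. Pax5 reached its highest means in the 2-weeks libraries, 26.9 ± 1.89 CPM (SD, n = 5) in uninjured C57BL/6 joints, against 10.5 ± 1.26 (n = 5) at 1-week, and this step falls on the change of batch. Bulk RNA cannot tell fewer B cells from less RNA per cell.

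**Figure D1:**
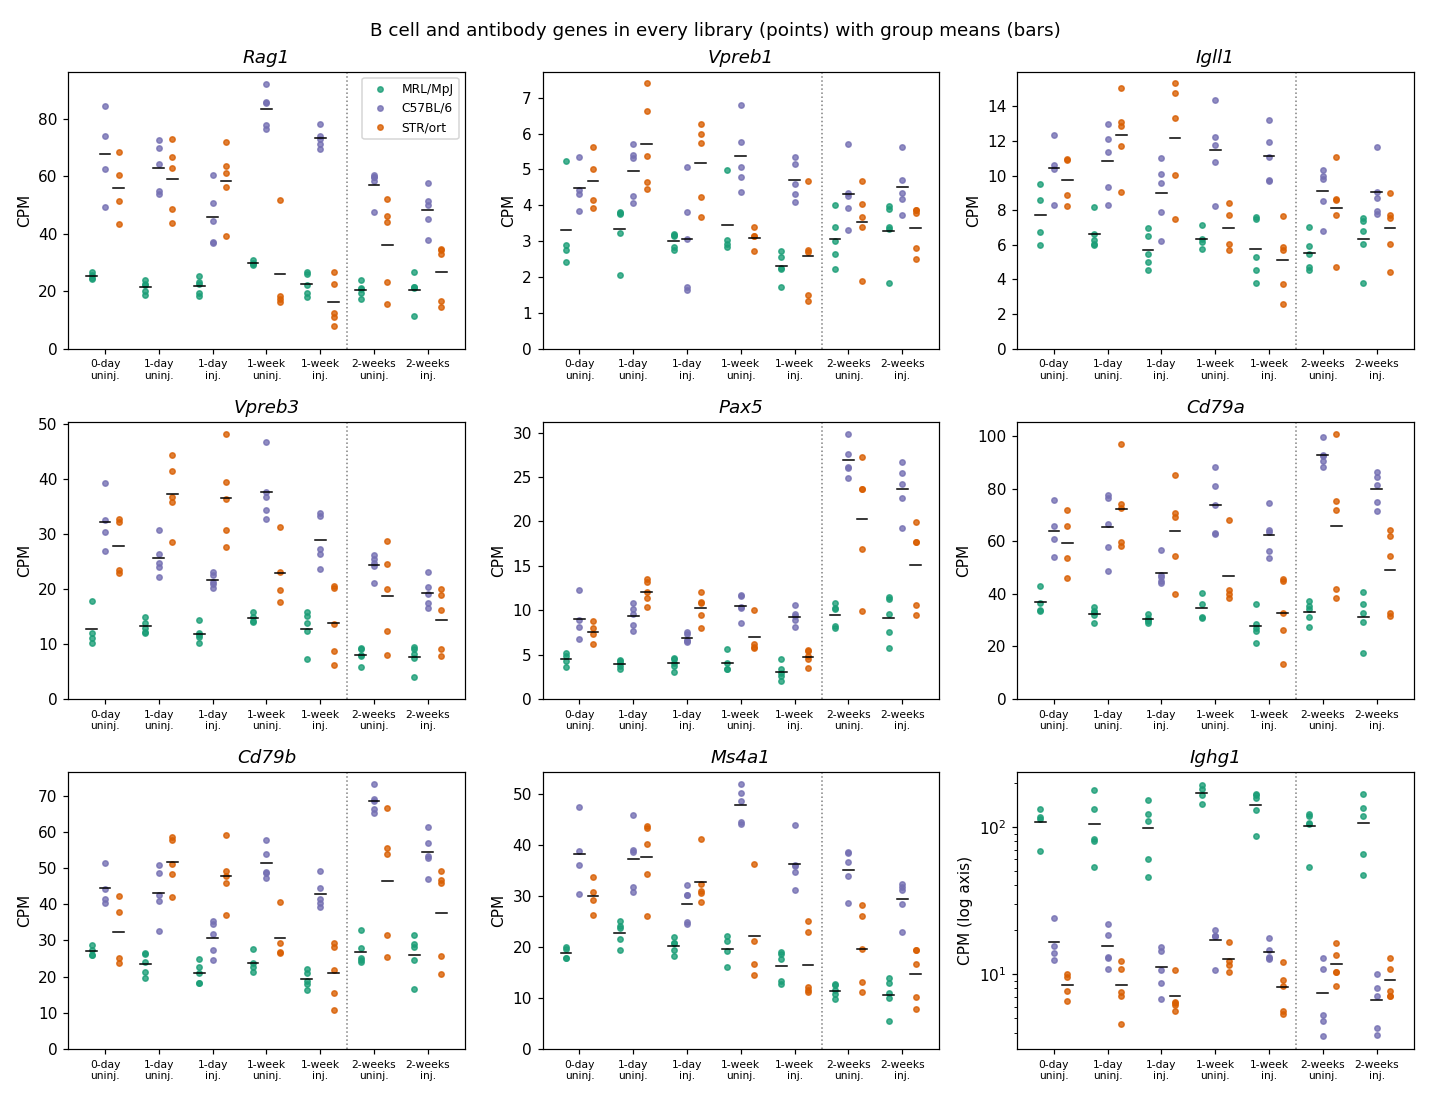
Levels of the 9 genes in every library (points, CPM) with the group means (bars), by time and joint on the x axis and by strain in colour; the dotted line separates the experimental batches, and the axis of Ighg1 is logarithmic. Ighg1 stood at 45.6 or more in all MRL/MpJ libraries and at 24.0 or less in all others, and in injured STR/ort joints the other 8 genes are lower at 1-week than at 1-day.

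The first comparison asked how the strains differed. Ighg1 was far higher in MRL/MpJ joints. Of the other members, Rag1, Vpreb3, Pax5 and Cd79a were lower there than in C57BL/6 in 7 of 7 comparisons, Cd79b and Ms4a1 in 6, Igll1 in 5 and Vpreb1 in 2. At 0-day the 4 MRL/MpJ libraries held 68.8, 114, 132 and 117 CPM of Ighg1, the 4 C57BL/6 libraries 13.9, 15.4, 24.0 and 12.4, and the 4 STR/ort libraries 10.0, 9.60, 6.58 and 7.61. The MRL/MpJ libraries lay apart from both other strains. Over all times the 33 MRL/MpJ libraries ranged from 45.6 to 193 with a median of 119, the 34 C57BL/6 libraries from 3.76 to 24.0 with a median of 12.8, and the 33 STR/ort libraries from 4.59 to 16.4 with a median of 9.14. Ighg1 was called lower (edgeR quasi-likelihood test, Benjamini-Hochberg adjusted p below 0.05 and fold change above 1.5) in 7 of 7 comparisons of C57BL/6 with MRL/MpJ, with log2 fold changes from -2.66 to -4.01, and in 7 of 7 of STR/ort with MRL/MpJ, from -3.12 to -4.12. These are 6.32-fold to 16.1-fold and 8.69-fold to 17.4-fold lower levels. The levels of MRL/MpJ also spread within groups, from 45.6 to 151 in the 5 injured joints at 1-day.

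Rag1 was higher in C57BL/6 than in MRL/MpJ in all 7 comparisons, by 1.08 to 1.71 on the log2 scale. At 0-day its libraries held 24.3, 26.6, 25.7 and 24.7 CPM in MRL/MpJ, 49.4, 74.1, 84.5 and 62.5 in C57BL/6, and 68.4, 60.5, 51.5 and 43.2 in STR/ort. The MRL/MpJ libraries varied little, and none reached the level of a C57BL/6 or STR/ort library. Over all times Rag1 stood at 11.3 to 30.9 CPM in MRL/MpJ and 36.8 to 92.0 in C57BL/6, without overlap. Cd79a, at 17.3 to 42.8 CPM against 44.1 to 99.9, did not overlap either. Vpreb3, Pax5 and Cd79a were called higher in 7 of 7 comparisons of C57BL/6 with MRL/MpJ, with ranges of 0.88 to 1.61, 0.79 to 1.59 and 0.67 to 1.48 on the log2 scale. Cd79b and Ms4a1 were called in 6 of 7, the exception being injured joints at 1-day (0.56 ± 0.13 SE and 0.50 ± 0.13, under 1.5-fold). The surrogate light chain genes were called less often. Igll1 was called higher in 5 of 7 (0.48 to 0.93) and Vpreb1 in 2 of 7 (0.01 to 1.03). The Vpreb1 call in uninjured joints at 1-day was lost without C57BL/6 replicate 2, 3 or 4 or MRL/MpJ replicate 1 or 2. Vpreb1 was gained at 0-day and in uninjured joints at 1-week and 2-weeks without single libraries. Igll1 calls in injured joints at 1-day and 2-weeks also moved with single libraries.

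Counted per comparison, C57BL/6 was higher than MRL/MpJ in 6 members and lower in 1 at 0-day (15.9% of all genes called in either direction). It was higher in 8 and lower in 1 in uninjured joints at 1-day (14.8% of all genes), higher in 5 and lower in 1 in injured joints at 1-day (16.3%), higher in 7 and lower in 1 in uninjured joints at 1-week (8.53%), and higher in 8 and lower in 1 in injured joints at 1-week (9.47%). At 2-weeks it was higher in 7 and lower in 1 in uninjured joints (9.83%) and higher in 6 and lower in 1 in injured joints (11.5%). The member that was lower was always Ighg1. The shares of members called thus stood above those of all genes, where the median log2 fold change was within 0.0147 of 0. The members were chosen with earlier results of these data known, so this excess is not a test of the set. With 2 factors of unwanted variation (RUVg) estimated from the housekeeping genes, 0 of 9 members were called at 0-day between C57BL/6 and MRL/MpJ, although Rag1 stayed at 1.05 on the log2 scale and Ighg1 at -1.84 there, and calls among all genes dropped from 2751 to 290. At the later times this setting left 5 to 9 members called in this pair of strains.

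Genes of the same lineage were counted by list in this pair of strains, beside the shares of all genes above. Of 11 measured precursor genes (12 listed), 9 were called higher and 0 lower in C57BL/6 than in MRL/MpJ at 0-day, and over the 7 comparisons 6 to 9 were higher and 0 lower. The precursor gene with the largest difference at 0-day was Il7r, the interleukin 7 receptor, at 31.4 ± 3.31 CPM (SD, n = 4) against 15.3 ± 2.20 (n = 4). Of 19 mature B cell genes, 8 were higher and 0 lower at 0-day, and 3 to 16 higher and 0 lower over the 7 comparisons, the 3 in injured joints at 1-day, where 16.3% of all genes were called. Cd72, a B cell inhibitory receptor, led these in all 7, with log2 fold changes from 1.71 in injured joints at 1-day to 2.25 in uninjured joints at 1-week. Plasma cell and antibody genes did not move in 1 direction. Of 18, at 0-day 3 were higher in C57BL/6 and 5 lower. Markers of other cells differed at 0-day too. Erythroid markers were called higher in 1 and lower in 3 of 9, skeletal muscle markers lower in 8 of 8 (summed level 32839 to 53067 CPM in C57BL/6 and 71097 to 86544 in MRL/MpJ), joint tissue markers higher in 6 of 8, T cell markers higher in 1 and lower in 2 of 10, and marrow neutrophil markers in 0 of 10. Cycling cell markers were called in 0 of 6, with summed levels of 2174 to 2552 CPM in C57BL/6 and 3009 to 3534 in MRL/MpJ, without overlap. In uninjured joints at 1-week muscle and joint markers were called in 0 of 8 each, marrow neutrophil markers in 0 of 10 and cycling cell markers in 0 of 6, erythroid markers were higher in 1 of 9 (summed level 5721 to 9084 CPM in C57BL/6 and 4524 to 5372 in MRL/MpJ), and T cell markers were higher in 1 and lower in 1 of 10 (69.5 to 86.2 against 94.0 to 109). That comparison had the fewest calls among these lists. Over all 7, joint tissue markers were higher in C57BL/6 in 0 to 7 of 8, erythroid markers higher in 1 and lower in 0 to 8 of 9, T cell markers higher in 1 to 3 and lower in 1 to 2 of 10, muscle markers lower in 0 to 8 of 8, and marrow neutrophil and cycling cell markers lower in 0 to 1. In injured joints at 1-day the summed levels of neutrophil (10348 to 13183 against 14041 to 18533 CPM) and cycling cell markers (1998 to 2772 against 2894 to 3921) were lower in C57BL/6 without overlap, and in uninjured joints at 2-weeks those of joint tissue markers (3229 to 3773 against 2186 to 2883) were higher without overlap. The part of these lists in the differences between the strains was not tested.

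The other antibody genes differed in how far they went with Ighg1. Ighg3, the constant region of IgG3, was also higher in MRL/MpJ, at 20.7 ± 9.87 CPM (SD, n = 4) against 2.35 ± 1.30 (n = 4) in STR/ort at 0-day (log2 fold change -3.05 ± 0.42 SE, edgeR adjusted p = 1.56e-05). Over all libraries Ighg3 ranged from 4.87 to 32.5 CPM in MRL/MpJ, from 0.378 to 29.8 in C57BL/6 and from 0.540 to 6.67 in STR/ort, and these ranges overlapped. In uninjured joints at 1-day it stood at 14.1 ± 9.82 CPM in MRL/MpJ and 8.13 ± 12.1 in C57BL/6 (SD, n = 5 each). Ighm, the IgM heavy chain and the most abundant of the antibody genes, had a median of 322 CPM in MRL/MpJ (223 to 446), 477 in C57BL/6 (292 to 1329) and 435 in STR/ort (199 to 570), with overlapping ranges. Some C57BL/6 libraries stood apart in both joints. At 2-weeks replicates 1 and 4 held 1034 to 1329 CPM of Ighm and the others 436 to 604, and at 1-day replicate 4 held 652 and 1000 and the others 292 to 498. Igkc and Jchain were highest in the same libraries of their groups. Igkc, the kappa light chain, had medians of 164, 121 and 176 CPM in the same order, with overlapping ranges. Ighg2b had medians of 34.3, 24.7 and 33.7 CPM, also overlapping. Ighg2c was highest at the median in MRL/MpJ, with 21.6, 8.45 and 13.3 CPM, as was Ighe, the IgE heavy chain, with 0.408, 0 and 0.102, and their ranges overlapped. All antibody genes were counted against the C57BL/6 genome, and how well reads of the other strains align there was not tested. Igha, the IgA heavy chain, had medians of 76.0, 34.5 and 79.9 CPM, and Jchain, which joins antibody units, 72.0, 26.4 and 58.7, both overlapping over all libraries, which pool the batches. Group by group, Igha in MRL/MpJ lay above C57BL/6 without overlap, at 66.8 to 85.5 against 21.8 to 54.4 CPM at 0-day and 226 to 249 against 135 to 194 in uninjured joints at 2-weeks, and in each of the other groups. Jchain did so at 0-day (48.9 to 83.2 against 22.0 to 41.5), at 1-week and in injured joints at 1-day, but not in uninjured joints at 1-day nor at 2-weeks. Per kilobase of exon, the ratio of Ighg1 to Cd79a was 0.726 to 4.34 in the MRL/MpJ libraries, 0.0229 to 0.196 in C57BL/6 and 0.0433 to 0.510 in STR/ort, so that the MRL/MpJ libraries lay above all others. Of the stretches of 50 bases in Ighg1, 0.4% also occur in other genes of the reference, all of these in both Ighg2b and Ighg3.

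**Figure D2:**
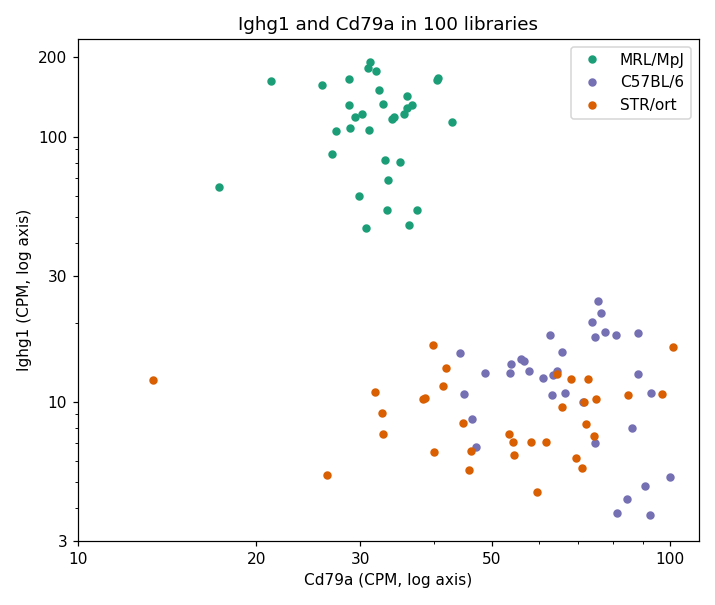
Ighg1 against Cd79a in the 100 libraries (CPM, both axes logarithmic, 1 point per library, coloured by strain). The MRL/MpJ points form a cloud of their own at 45.6 CPM or more of Ighg1 and 42.8 or less of Cd79a, and those of C57BL/6 and STR/ort lie below 25 CPM of Ighg1 over a wide range of Cd79a.

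STR/ort was set against both strains in turn. At 0-day it was higher than MRL/MpJ in 5 members and lower in 1 (14.8% of all genes called), with Rag1 at 1.15 ± 0.15, Vpreb3 at 1.12 ± 0.17 and Pax5 at 0.79 ± 0.20 on the log2 scale. At 1-day it was higher than MRL/MpJ in 8 and lower in 1 in both uninjured (22.6%) and injured joints (20.3%), with Pax5 at 1.65 ± 0.13 in uninjured joints. At 1-week it was higher in 2 and lower in 1 in uninjured joints (24.4%) and higher in 1 and lower in 1 in injured joints (29.5%), although more of all genes were called than at 1-day. At 2-weeks it was higher in 6 and lower in 1 in uninjured joints (13.8%; 3 members in all with 2 RUVg factors) and higher in 3 and lower in 1 in injured joints (18.9%). Pax5 was called higher in 7 of 7 of these comparisons, and in injured joints at 1-week its call was lost without MRL/MpJ replicate 2, 3 or 4 or STR/ort replicate 2 or 4. Without STR/ort replicate 4 Rag1 was called lower there (-0.74 ± 0.26). The members called higher in uninjured joints at 1-week were Vpreb3 (0.66 ± 0.25, edgeR adjusted p = 0.0317) and Pax5 (0.78 ± 0.21, edgeR adjusted p = 0.00287). Without the uninjured STR/ort library of replicate 4, neither was called (Vpreb3 0.48 ± 0.26, Pax5 0.55 ± 0.20) and Rag1 was called lower in STR/ort than in MRL/MpJ (-0.77 ± 0.23, edgeR adjusted p = 0.00765). The call of Vpreb3 was also lost without the uninjured library of MRL/MpJ replicate 1, 3 or 4 or of STR/ort replicate 1. Vpreb3 turned to -0.20 with 1 RUVg factor, and with 1 or 2 factors the calls in uninjured joints at 1-week fell from 3 to 1 and those in injured joints from 2 to 1. In injured joints at 2-weeks the 4 calls became 3 with 1 RUVg factor and 1 with 2 factors, and 2 without the MRL/MpJ library of replicate 4, which held the most muscle marker RNA of its group (107248 CPM against 50074 to 59806), and 6 without the STR/ort library of replicate 3. Markers of other cells differed in these comparisons too. At 0-day erythroid markers were lower in STR/ort than in MRL/MpJ in 9 of 9 (summed level 2233 to 2400 against 4767 to 5829 CPM), cycling cell markers lower in 2 of 6 (1574 to 2000 against 3009 to 3534), marrow neutrophil markers lower in 1 of 10 (12872 to 15414 against 15932 to 19029), T cell markers higher in 1 and lower in 5 of 10 (at most 81.8 against at least 93.0), joint tissue markers higher in 3 of 8 (7997 to 11232 against 4278 to 5792) and muscle markers called in 0 of 8. Over all 7 comparisons erythroid markers were lower in 7 to 9, joint tissue markers higher in 3 to 8, cycling cell markers lower in 1 to 6, T cell markers lower in 2 to 6 and higher in 1 to 2, and marrow neutrophil markers lower in 0 to 5 and higher in 0 to 1, while muscle markers were lower in 6 to 8 at 1-day and 1-week and called in 0 at 2-weeks. The part of these lists in the results was not tested.

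Against C57BL/6, STR/ort was called lower in 1 member, Ighg1 (-0.997 ± 0.23), at 0-day (13.8%), and Cd79b was called lower as well without STR/ort replicate 1 or 2. With 2 RUVg factors 0 members were called there, and calls among all genes went from 2391 to 668. At 1-day 0 of 9 members were called in uninjured joints (10.5%), with 4 at an unadjusted p under 0.05 and 1 called by DESeq2, with housekeeping scaling, with the compared groups only or without any one of 7 libraries (Ighg1 lower without 5 of them, Vpreb3 higher without C57BL/6 replicate 4 or STR/ort replicate 1), and 3 were higher in injured joints (12.4%), namely Vpreb1 (0.79 ± 0.22), Vpreb3 (0.75 ± 0.12) and Cd79b (0.64 ± 0.13), of which 1 was called with 1 or 2 RUVg factors and 2 without C57BL/6 replicate 4 or STR/ort replicate 3. Among all genes 6669 of 17310 had an unadjusted p under 0.05 in uninjured joints at 1-day. At 1-week 7 of 9 members were lower in uninjured joints (22.2%) and 9 of 9 in injured joints (25.1%). Rag1 had the largest difference. In uninjured joints its libraries held 16.1, 17.3, 18.2 and 51.8 CPM in STR/ort and 77.9, 92.0, 76.3, 85.4 and 85.7 in C57BL/6 (log2 fold change -1.67 ± 0.26, edgeR adjusted p = 5.35e-06). In injured joints they held 11.1, 12.4, 7.93, 26.7 and 22.6 in STR/ort and 71.3, 73.0, 78.0, 69.4 and 74.0 in C57BL/6 (-2.19 ± 0.25, edgeR adjusted p = 2.85e-08). The strains did not overlap in either. Vpreb1 alone overlapped among the members in injured joints, where 25.1% of all genes were called. Genes without overlap were not counted over all genes. The 8 members besides Rag1 in injured joints ranged from -0.81 (Ighg1) to -1.14 (Ms4a1). Markers of other cells moved between the same joints. In uninjured joints at 1-week erythroid markers were lower in 8 of 9 (summed level 1649 to 4161 CPM in STR/ort and 5721 to 9084 in C57BL/6), cycling cell markers lower in 3 of 6 (1442 to 2495 against 3118 to 3531), T cell markers higher in 2 and lower in 7 of 10, muscle markers lower in 3 of 8, marrow neutrophil markers higher in 1 of 10 and joint tissue markers higher in 8 of 8 (13516 to 26454 against 3162 to 5725). In injured joints erythroid markers were lower in 8 of 9 (912 to 2814 against 4857 to 6484), cycling cell markers lower in 3 of 6 (1072 to 2182 against 2724 to 3145), T cell markers higher in 1 and lower in 6 of 10 (with a summed level that was higher, 112 to 144 against 83.3 to 96.9), muscle markers lower in 8 of 8, marrow neutrophil markers called in 0 of 10 (8736 to 12398 against 13206 to 14933, without overlap) and joint tissue markers higher in 6 of 8 (13483 to 16868 against 5046 to 7706). The part of these lists in the lower level of the members was not tested. At 2-weeks 2 were lower in uninjured joints (9.78%), Rag1 at -0.64 ± 0.24 and Ms4a1 at -0.83 ± 0.22, and 4 in injured joints (10.4%), Ms4a1 (-0.997 ± 0.22), Rag1 (-0.86 ± 0.24), Cd79a (-0.70 ± 0.21) and Pax5 (-0.65 ± 0.20). Settings and single libraries moved these counts. The count of 2 in uninjured joints at 2-weeks was 1 with housekeeping scaling, 1 or 2 RUVg factors, filterByExpr, DESeq2 or the compared groups only. In uninjured joints at 2-weeks there were 4 calls without the STR/ort library of replicate 5, and 1 without STR/ort replicate 1 or 3, MRL/MpJ replicate 1, or any one of C57BL/6 replicates 2, 3, 4 and 5. In injured joints there were 2 without STR/ort replicate 1. Markers of other cells differed at these times as well. At 0-day muscle markers were higher in STR/ort in 8 of 8 (75899 to 87371 against 32839 to 53067 CPM), erythroid markers lower in 5 of 9, T cell markers lower in 4 of 10, cycling cell markers lower in 1 of 6, joint tissue markers higher in 2 and lower in 2 of 8, and marrow neutrophil markers called in 0 of 10. In injured joints at 1-day, where 3 members were higher, marrow neutrophil markers were higher in 3 of 10 (13538 to 16432 against 10348 to 13183), joint tissue markers higher in 3 of 8 (11485 to 15046 against 5124 to 8718), erythroid markers lower in 2 of 9 (1826 to 2603 against 3197 to 5068) and muscle markers lower in 6 of 8. At 2-weeks erythroid markers were lower in 8 of 9 in uninjured (1492 to 2307 against 3414 to 4695) and 9 of 9 in injured joints (1128 to 1905 against 2490 to 3684), cycling cell markers lower in 2 of 6 in each, T cell markers lower in 6 and 5 of 10, and marrow neutrophil and muscle markers called in 0. The summed level of joint tissue markers at 2-weeks was higher in uninjured STR/ort joints without overlap (3808 to 6221 against 3229 to 3773 CPM). In injured joints it was 6355 to 8951 against 3733 to 6441. The part of these lists in these results was not tested.

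The 2-weeks STR/ort libraries differed by animal, and the labels name the same animal for both joints of a number. Rag1 held 14.5, 34.3, 16.7, 34.7 and 33.0 CPM in the injured joints of replicates 1 to 5, and 15.4, 46.2, 23.1, 52.2 and 44.2 in the uninjured joints. Animals 1 and 3 were the lowest in both joints. Cd79a held 31.7, 61.8, 32.8, 54.3 and 64.5 in the injured and 38.3, 75.1, 41.9, 72.1 and 101 in the uninjured joints, and the same animals were the lowest. The spread of the STR/ort groups was therefore wide, and the coefficient of variation of Rag1 reached 67.0% in uninjured STR/ort joints at 1-week, where a single library of 4 was high, against 2.46% at the lowest.

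**Figure D3:**
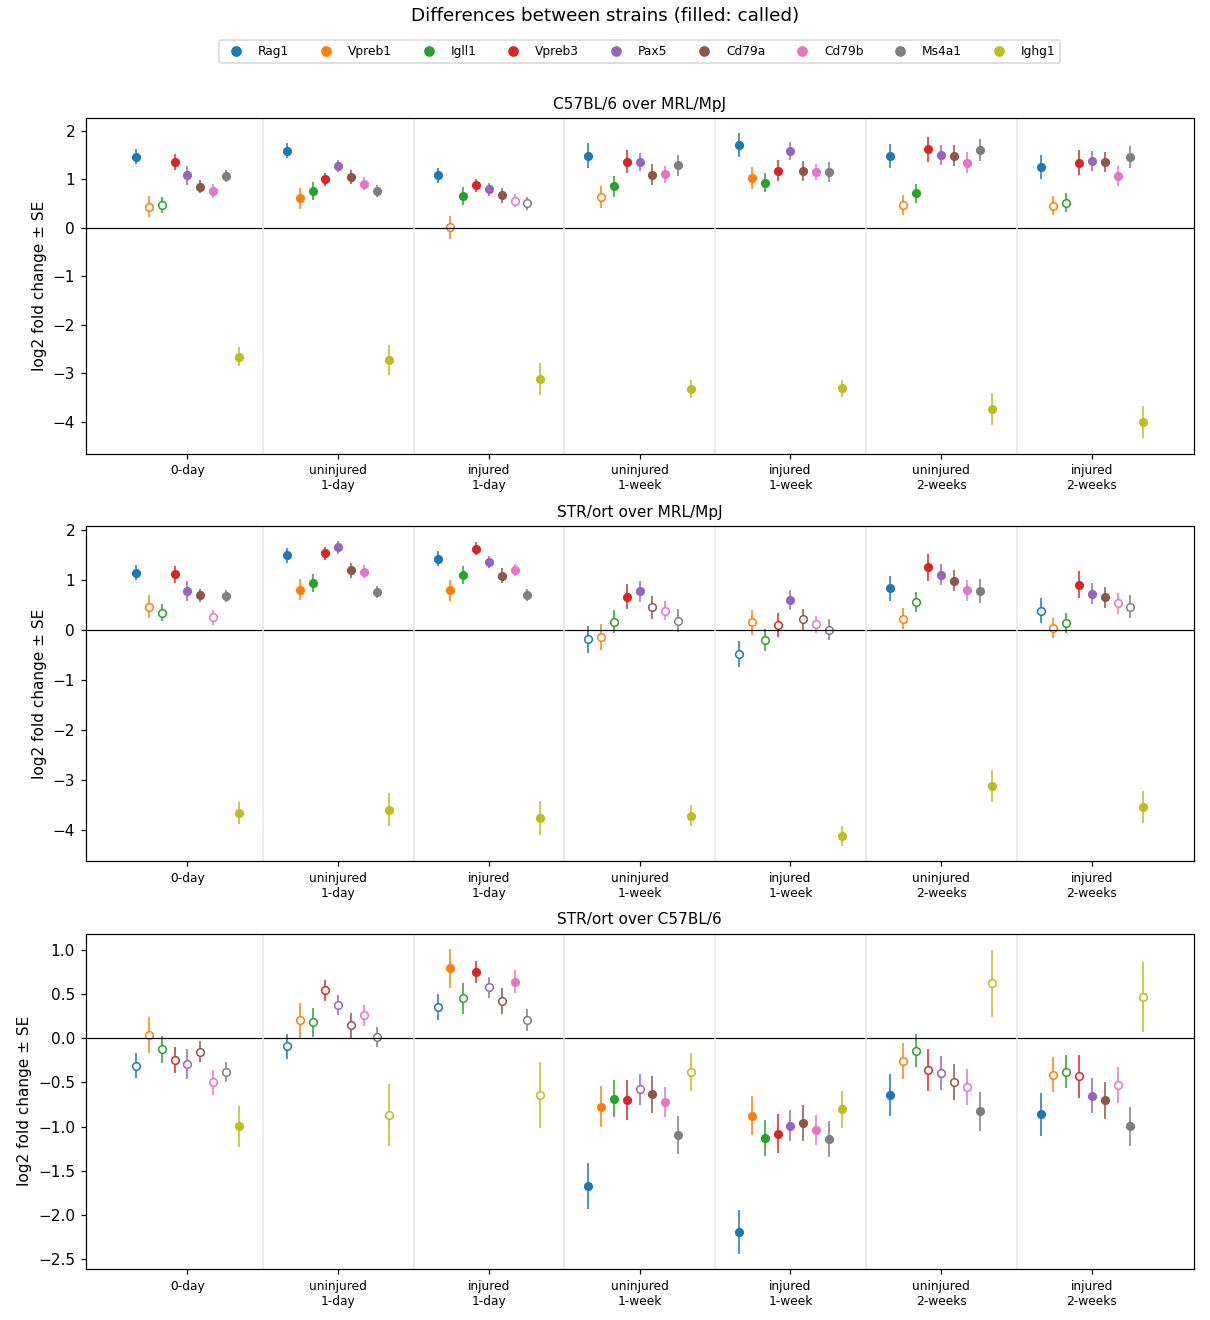
Differences between strains as log2 fold change ± SE for the 9 genes (colours) in the 7 comparisons of each pair of strains (C57BL/6 over MRL/MpJ, STR/ort over MRL/MpJ, STR/ort over C57BL/6); filled points were called. Ighg1 lies between -2.66 and -4.12 in the upper 2 panels, and in the lower panel all 9 genes lie below 0 at 1-week, with Rag1 the lowest at -1.67 and -2.19.

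The second comparison asked what changed with injury. Changes were small, and they leaned downward. Of the 81 changes (9 members, 3 strains and 3 times), 75 were negative, with a median of -0.23 on the log2 scale and a range from -0.74 to 0.19, and 3 were called. At 1-day, 0 of 9 members were called in MRL/MpJ (2.02% of all genes), 1 was lower in C57BL/6 (5.6%) and 0 were called in STR/ort (4.31%). At 1-week 0 were called in MRL/MpJ (3.13%), 0 in C57BL/6 (5.82%) and 2 were lower in STR/ort (9.21%). At 2-weeks 0 were called in MRL/MpJ (1.16%), C57BL/6 (2.95%) and STR/ort (4.66%). Of the 81 changes, 18 had an unadjusted p under 0.05, which is 0 to 7 of 9 members per comparison. Among all 17310 genes, 1298 to 5756 per comparison had such a p. DESeq2 gave the same number of calls in each of these 9 comparisons.

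In C57BL/6 at 1-day Vpreb1 was the member called, at 1.63, 5.07, 3.81, 3.07 and 1.72 CPM in injured against 4.27, 5.70, 5.32, 5.40 and 4.08 in uninjured joints (-0.73 ± 0.22, edgeR adjusted p = 0.0188). The libraries overlapped. Pax5 held 6.52, 7.55, 7.36, 6.59 and 6.43 in injured and 7.63, 10.1, 9.56, 10.8 and 8.32 in uninjured joints (-0.45 ± 0.12, edgeR adjusted p = 0.00711), without overlap but under the fold of 1.5. Cd79b (-0.51 ± 0.13), Rag1 (-0.47 ± 0.15), Cd79a (-0.46 ± 0.15) and Ms4a1 (-0.40 ± 0.12) also had an adjusted p below 0.05 and stayed under 1.5-fold. In the same joints marrow neutrophil markers were called in 0 of 10, but their summed level was 10348 to 13183 CPM in injured and 14948 to 18426 in uninjured joints, without overlap. Erythroid and muscle markers were lower in 1 of 9 and 1 of 8, T cell and joint tissue markers higher in 1 of 10 and 1 of 8, and cycling cell markers called in 0 of 6. Their part in the result was not tested. The count of 1 became 0 without the injured library of replicate 1 or of replicate 5, or when the compared groups alone were fitted, and 2 without the injured library of replicate 2 or the uninjured library of replicate 1. It was 3 with 2 RUVg factors.

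In STR/ort at 1-week Vpreb3 and Ighg1 were the members called. Vpreb3 held 8.71, 13.6, 6.15, 20.1 and 20.4 CPM in injured and 23.1, 17.5, 19.7 and 31.3 in uninjured joints (-0.74 ± 0.24, edgeR adjusted p = 0.0243). Ighg1 held 5.34, 9.14, 12.1, 8.34 and 5.58 in injured and 11.6, 10.4, 16.4 and 12.3 in uninjured joints (-0.66 ± 0.23, edgeR adjusted p = 0.0381). Both genes overlapped between the groups, since the injured libraries spread widely. Rag1 differed by -0.68 ± 0.27 (edgeR adjusted p = 0.0739), and by -0.10 ± 0.22 without the uninjured library of replicate 4. Without that library 0 members were called, as without the injured library of replicate 1, and 6 were called without the injured library of replicate 4. With the compared groups only 0 were called, and with 1 RUVg factor 5. In these STR/ort libraries the joints of a number deviated together (correlations 0.162 to 0.37), though the labels name no animal here. With the replicate number as a block 5 members were called lower. They were Vpreb3 (-0.99 ± 0.18), Rag1 (-0.83 ± 0.11, edgeR adjusted p = 1.57e-05), Cd79a (-0.76 ± 0.14), Cd79b (-0.73 ± 0.11) and Igll1 (-0.69 ± 0.19), while Ighg1 stood at -0.55 ± 0.16. This fit also dropped the injured library of replicate 5, which has no partner. Leaving out that library without a block gave the same 5 calls and lost that of Ighg1, with Rag1 at -0.83, Cd79a at -0.70, Cd79b at -0.68 and Igll1 at -0.67, so that the block and the dropped library cannot be told apart in this count. In the 4 pairs by number Rag1, Vpreb3, Cd79a, Cd79b, Ms4a1, Pax5 and Ighg1 were lower in the injured joint in 4 of 4, and Vpreb1 and Igll1 in 3 of 4.

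Other lists were counted in the same joints, where 9.21% of all genes were called. At 1-week in STR/ort, 0 of 11 precursor genes were higher and 1 lower, Dntt, the terminal transferase that adds bases at the cut ends, at 12.5 ± 2.81 CPM (SD, n = 5) against 19.2 ± 1.30 (n = 4; -0.62 ± 0.16 SE). Of 19 mature genes 0 were higher and 3 lower, led by the complement receptor Cr2 (-0.68 ± 0.21). Of 18 plasma cell and antibody genes 1 was higher, Sdc1, a surface proteoglycan of plasma cells that other joint cells also make (1.20 ± 0.17), and 5 were lower, led by Ighm at 310 ± 75.4 against 490 ± 47.4 CPM (-0.67 ± 0.13). Marrow neutrophil markers were lower in 5 of 10 and muscle markers in 7 of 8, with summed muscle levels of 14057 to 30644 CPM in injured and 28621 to 55011 in uninjured joints. Of T cell markers 2 of 10 were higher and 1 lower, of joint tissue markers 1 of 8 higher and 2 lower, of erythroid markers 1 of 9 lower, and of cycling cell markers 0 of 6 were called. Their part in the result was not tested. At 2-weeks in STR/ort Dntt was again lower (9.20 ± 2.97 against 14.1 ± 2.03 CPM, n = 5 each, -0.61 ± 0.19 SE), in 5 of 5 animals. Cxcr5 led the mature genes called lower (-0.89 ± 0.26 SE), and Sdc1 the plasma cell and antibody genes called higher (1.15 ± 0.12 SE). Of other cells, 4 of 8 joint tissue markers and 1 of 10 T cell markers were called higher, with 0 calls among muscle, marrow neutrophil, erythroid and cycling cell markers. The summed levels of several lists nonetheless lay in 1 direction in 5 of 5 animals, lower in the injured joint for marrow neutrophil (10903 to 15771 CPM against 12748 to 18606), erythroid (1128 to 1905 against 1492 to 2307) and cycling cell markers (892 to 1109 against 1067 to 1490), and higher for joint tissue (6355 to 8951 against 3808 to 6221) and T cell markers (70.5 to 98.5 against 52.1 to 71.5). Their part in the lower Dntt and member levels was not tested. Of the members at 2-weeks in STR/ort, Rag1, Cd79a, Ms4a1 and Vpreb3 were lower in the injured joint of 5 of 5 animals, with median differences of -0.43, -0.35, -0.43 and -0.38 on the log2 scale, none of which was called, while Cd79b, Pax5, Igll1 and Ighg1 were lower in 4 of 5 and Vpreb1 in 3. In C57BL/6 Rag1, Cd79a, Ms4a1, Vpreb3, Cd79b and Pax5 were lower in 5 of 5 animals each, Ighg1 in 3 and Vpreb1 and Igll1 in 2. Summed marrow neutrophil markers were also lower in the injured joint of each C57BL/6 animal (11946 to 15086 against 15736 to 19163 CPM). Erythroid and cycling cell sums were lower in each animal too, and joint tissue, muscle and T cell sums higher. The part of these lists in the C57BL/6 member levels was not tested. In MRL/MpJ Cd79a was lower in 4 of 5, Ms4a1 in 3, Rag1 in 1 and each of the other members in 2.

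Whether the change with injury differed between strains was tested by the interaction. Of the 81 interactions 0 were called, 4 had an unadjusted p under 0.05, DESeq2 called 0 and the lowest adjusted p was 0.248. Among all 17310 genes, 505 to 3010 per interaction had an unadjusted p under 0.05. Among all genes the shares called at 1-day were 0.162% (STR/ort minus MRL/MpJ), 2.66% (STR/ort minus C57BL/6) and 0.318% (C57BL/6 minus MRL/MpJ). At 1-week they were 0.884%, 0.491% and 0% in the same order, and at 2-weeks 0.451%, 0.0462% and 0%. With the replicate number as a block 1 interaction was called, Rag1 in STR/ort minus C57BL/6 at 1-week (-0.66 ± 0.14, edgeR adjusted p = 0.0119). The labels name no animal at 1-week in either strain, so whether this block pairs joints is not known.

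**Figure D4:**
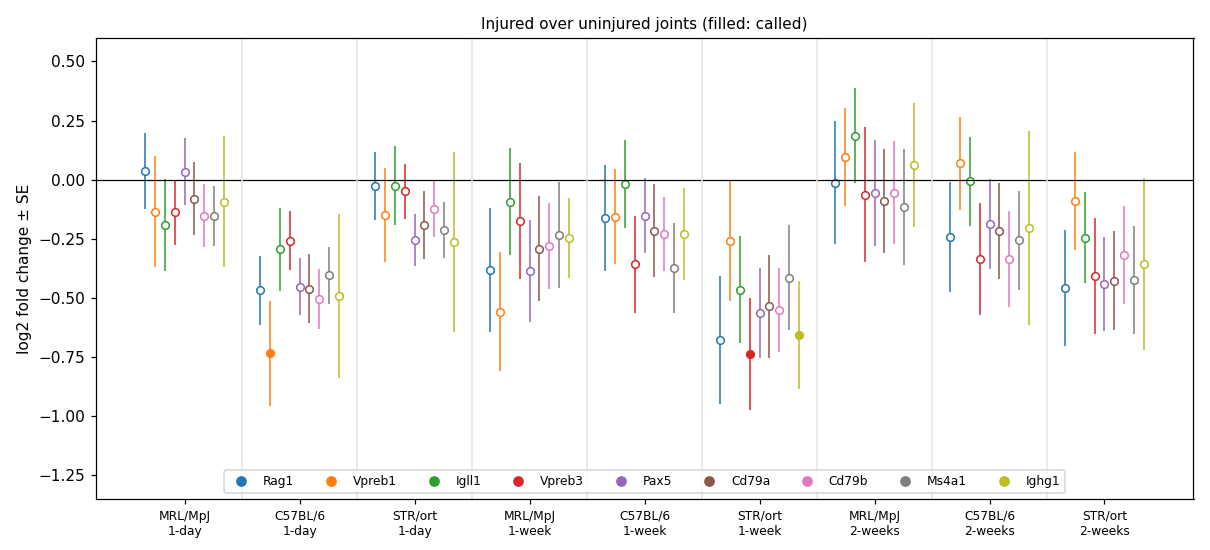
Injured over uninjured joints as log2 fold change ± SE for the 9 genes (colours) at the 3 times after injury in each strain; filled points were called. Most points lie below 0, between -0.74 and 0.19, and those of MRL/MpJ at 1-day and 2-weeks lie nearest 0.

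The third comparison followed the levels over time within the first batch. In injured STR/ort joints 8 of 9 members were called lower at 1-week than at 1-day and 0 higher (13.9% of all genes called), and Ighg1 alone did not pass (0.19 ± 0.33). Rag1 fell from 56.4, 63.4, 71.9, 61.0 and 39.1 CPM to 11.1, 12.4, 7.93, 26.7 and 22.6 (-1.86 ± 0.21, edgeR adjusted p = 8.2e-11), with no overlap. Vpreb3 fell by 1.41 ± 0.18 on the log2 scale, from 27.6, 39.3, 48.1, 36.3 and 30.7 CPM to the values above, also with no overlap. Igll1 changed by -1.26, Cd79b by -1.19, Pax5 by -1.13, Vpreb1 by -1.01, Ms4a1 by -0.99 and Cd79a by -0.99. The number of calls was 8 in the 8 other settings run for this comparison and without any 1 library. The mean levels of uninjured STR/ort joints were also lower at 1-week (n = 4) than at 1-day (n = 5) for the members other than Ighg1 (12.7 against 8.42 CPM), with Rag1 at 25.9 ± 17.3 against 59.0 ± 12.4 CPM (SD), Vpreb3 at 22.9 ± 6.04 against 37.3 ± 6.04, Vpreb1 at 3.10 ± 0.283 against 5.71 ± 1.28, Igll1 at 6.97 ± 1.33 against 12.3 ± 2.21, Pax5 at 6.94 ± 2.06 against 12.1 ± 1.30 and Cd79a at 46.9 ± 14.1 against 72.3 ± 15.6. This interval was not tested in uninjured joints, nor was its difference from injured joints. In injured STR/ort joints at 1-week against 1-day, 7 of 11 precursor genes were lower and 1 higher, and 14 of 19 mature genes were lower and 0 higher, led by Fcrla (22.4 ± 7.75 against 64.5 ± 11.9 CPM, n = 5 each, -1.54 ± 0.15 SE). Of the plasma cell and antibody genes 5 of 18 were lower, led by Irf4, a factor of plasma and mature B cells (-1.36 ± 0.13 SE), and 1 higher. Of other cells, T cell markers were lower in 3 of 10 and higher in 1, marrow neutrophil markers lower in 1 of 10, erythroid markers lower in 1 of 9, joint tissue markers higher in 2 and lower in 2 of 8, and muscle, cycling cell and housekeeping genes called in 0. The summed level of the neutrophil markers was 8736 to 12398 CPM at 1-week and 13538 to 16432 at 1-day, without overlap, and that of the T cell markers was higher, at 112 to 144 against 83.5 to 95.7, also without overlap. The part of these lists in the result was not tested.

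The other strains were compared over the same interval. In injured C57BL/6 joints 2 members were higher at 1-week than at 1-day and 0 lower (4.47%), Rag1 by 0.68 ± 0.19 and Vpreb1 by 0.65 ± 0.22. The count was 1 with the compared groups only, 4 with housekeeping scaling, 3 and 5 with 1 and 2 RUVg factors, and 1 without C57BL/6 injured replicate 1, 4 or 5 at 1-day or 1 or 2 at 1-week. Of other cells in this C57BL/6 comparison, T cell markers were higher in 3 of 10, erythroid markers higher in 2 of 9 (4857 to 6484 against 3197 to 5068 CPM), joint tissue markers lower in 2 of 8, and muscle, marrow neutrophil and cycling cell markers called in 0. The summed level of the neutrophil markers was nonetheless higher at 1-week without overlap (13206 to 14933 against 10348 to 13183). Their part in the result was not tested. In MRL/MpJ 0 were called (3.11%), with 1 at an unadjusted p under 0.05 and 0 by DESeq2, and 1 was called without the 1-day injured library of replicate 1. The difference between strains in this interval was not tested. In uninjured joints at 1-day against 0-day, 2 members were higher in STR/ort (9.92%), Pax5 by 0.67 ± 0.15 and Cd79b by 0.68 ± 0.16. With 0-day replicate 4 of STR/ort left out 1 was called, and with 1 or 2 RUVg factors 0. In C57BL/6 (0.0693%) and MRL/MpJ (0.0924%) 0 were called there, with 0 at an unadjusted p under 0.05 in each and 0 by DESeq2. At 1-week against 0-day, 1 was lower in uninjured STR/ort joints (13.6%), Rag1 at -1.13 ± 0.23, or -1.71 ± 0.22 without the 1-week library of replicate 4, when Ms4a1 was called too (-0.80 ± 0.19). Vpreb1 (-0.63) was called too, making 2, without any one of 6 libraries of other groups. This count was 2 with housekeeping scaling, filterByExpr or DESeq2, 3 with the compared groups only and 4 with 1 or 2 RUVg factors. In C57BL/6 0 were called (5.72%), with 0 at an unadjusted p under 0.05, and in MRL/MpJ 0 (0%), with 1 at an unadjusted p under 0.05, and DESeq2 called 0 in both. Muscle markers in uninjured STR/ort joints were lower in 8 of 8 at 1-day and at 1-week, against 0-day, and joint tissue markers were higher in 2 and 4 of 8, with summed levels of 7997 to 11232 CPM at 0-day, 11965 to 18259 at 1-day and 13516 to 26454 at 1-week. Their part in these changes was not tested.

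Over the 21 groups, the 8 members other than Ighg1 followed each other, and Ighg1 ran against them. Correlations of the group means of log2 CPM between pairs of the 8 ranged from 0.30 to 0.97 with a median of 0.82, and those with Ighg1 from -0.77 to -0.51. Within groups, after removing group means, pairs of the 8 had a median of 0.71 and Ighg1 paired at 0.06 to 0.30. These are descriptions, since the libraries share depth, strain and batch. Among the genes most like Cd79a over the 21 groups, of 14417 with a mean CPM of at least 1, were Irf4 (0.97), Cd79b (0.97), Bach2 (0.96) and Pou2af1 (0.96). Those most like Vpreb1 were Igll1 (0.91), 1700027J07Rik (0.91), Slain1 (0.88), Rag1 (0.88) and Ralgps2 (0.87). Those most like Ighg1 were Xrcc2 (0.97), 4933440M02Rik (0.97), Dnah8 (0.97), AI506816 (0.96) and AA465934 (0.96), none of them an antibody gene.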

How the data were processed

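Reads of whole knee joints (poly(A) libraries) were aligned by the authors to mm10 with TopHat2 2.0.11 and counted per RefSeq gene with featureCounts, and the authors deposited these counts without normalization. Read length, strand and the handling of reads that fit several genes are not given in the sources used here. mm10 is the C57BL/6 genome, and how well reads of the other strains align to it was not tested. The table lists 17313 genes. The 3 repeated rows were dropped, 17310 genes remained, and the filter of 2 counts in 5 libraries removed 0 genes. Of 190 pairs of libraries within groups 0 were identical.

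Counts were fitted with edgeR 4.0.16 in R 4.3.3 (TMM scaling, quasi-likelihood test, Benjamini-Hochberg adjustment over all genes). Called means an adjusted p below 0.05 and a fold change above 1.5. There were 48 comparisons in 5 fits, 1 for each time point and 1 over the 70 libraries of the first experimental batch for changes between times. SE is the fold change divided by the root of F. CPM uses TMM factors. The code was tested on simulated data. Groups came from the sample titles. How many animals a library holds before 2-weeks is not stated, so p-values there cover the spread between libraries.

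The replicate number pairs the joints at 2-weeks by the animal in the labels. Before 2-weeks the labels name no animal, and whether the joints of a number came from the same mouse is not known. Correlations of deviations between joints of a number were 0.162 to 0.37 in STR/ort at 1-week (4 pairs). They were -0.035 to 0.431 in C57BL/6 at 1-week and -0.279 to 0.082 in the labelled MRL/MpJ pairs at 2-weeks, so they cannot settle this.

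The members and gene lists were chosen with earlier results of these data known. All members are named, and from the lists the called gene with the largest fold change in each direction of a comparison, plus genes most like Cd79a, Vpreb1 and Ighg1 by Pearson correlation, of which 1 is not reported here. Igha, Ighe, Ighg2b, Ighg2c, Ighm, Igkc and Jchain were added after their values were seen.

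Alternatives were RLE size factors, housekeeping scaling, RUVg with 1 or 2 factors, filterByExpr, no filter, DESeq2 1.42.0, the compared groups only, the replicate block and each library left out in turn.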

Additional observations from a re-analysis of the deposited data

Results flagged for a closer look

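Of 189 sets of 1 member in 1 group, 10 had a library far from the others, at a test that flags about 5% of sets by chance. The uninjured STR/ort library of replicate 4 at 1-week was the highest of its group for Rag1 (51.8 CPM, the others 16.1 to 18.2), Cd79a (68.0, the others 38.6 to 41.3) and Pax5 (10.0, the others 5.78 to 6.17). The injured STR/ort library of replicate 3 at 1-day was the highest for Ms4a1 (41.1 CPM) and Ighg1 (10.6 CPM). The injured C57BL/6 library of replicate 2 at 1-day was the highest for Cd79a (56.7 CPM), and the uninjured MRL/MpJ library of replicate 4 at 1-week for Vpreb1 (4.99 CPM). The lowest of their groups were Ighg1 in uninjured C57BL/6 replicate 3 at 1-week (10.6 CPM), Ighg1 in uninjured MRL/MpJ replicate 3 at 2-weeks (53.1 CPM, the others 105 to 122) and Rag1 in uninjured C57BL/6 replicate 1 at 2-weeks (47.7 CPM).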

How the results depend on the processing

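Calls counted over all 3 strains or strain pairs moved as follows. Between strains at 0-day 14 became 6 with 2 RUVg factors, and in uninjured joints at 2-weeks 17 became 11. With injury at 1-day 1 became 3 with 2 RUVg factors and 0 with the compared groups only, and at 1-week 2 became 5 with 1 RUVg factor, 5 with the replicate block, which also dropped injured STR/ort replicate 5 (5 without that library and no block), and 0 with the compared groups only. With the replicate block 1 interaction was called at 1-week instead of 0, Rag1 in STR/ort minus C57BL/6 (-0.66 ± 0.14), where the labels pair the joints of neither strain. The block changed no other call than those given here and in STR/ort at 1-week. Leaving out 1 library gave 0 to 2 calls with injury at 1-day, 0 to 6 at 1-week and 0 to 1 at 2-weeks, the 1 being Pax5 in STR/ort (-0.61 ± 0.18) without the uninjured library of replicate 1. Vpreb3 in STR/ort over MRL/MpJ in uninjured joints at 1-week was -0.20 with 1 RUVg factor. The cause of these shifts was not tested, except that the compared groups alone and a left-out library use fewer libraries. Of 432 single values, RLE size factors and no filter kept all on their side of the threshold, and 2 RUVg factors moved 34 below and 10 above it. Housekeeping scaling moved the median of all genes by over 0.1 (log2) in 8 comparisons, by at most 0.18. The lowest count in a library was 13 for Vpreb1, 20 for Pax5 and 22 for Igll1.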
